A study of Mus musculus with 2 samples.

Results

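The MYC network is a set of basic helix-loop-helix zipper transcription factors, and 10 of its genes were followed here in mouse embryonic limb: the activators Myc, Mycn and Mycl, their shared partner Max, the repressors Mxd1, Mxd3, Mxd4, Mxi1 and Mnt, and the parallel partner Mlx. They were chosen by gene symbol, through the gene identifiers of the deposited tables, and all 10 were found among the 43346 Ensembl genes measured. Total RNA came from healthy limbs of strain B6NCrl embryos at embryonic day 12.5, and the labels name a single group of 2 biological replicates with no transgene, treatment or second stage. Replicate 1 pooled limbs of 88 embryos and replicate 2 those of 68 embryos, males and females together, and each library started from 10 ng of RNA longer than 200 nt. Forelimbs and hindlimbs are not told apart in the labels. The comparisons available are therefore between genes within the limb, between transcripts of a gene and between the replicate libraries.

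MYC proteins bind DNA only as dimers with MAX, at the E-box CACGTG and related sites, and recruit cofactors that open chromatin and promote transcription of growth genes. MXD proteins, MXI1 and MNT compete for MAX, bind the same sites and recruit the SIN3 histone deacetylase complex, so they act against MYC. MLX is a second partner hub, which pairs with the nutrient-responsive factors MondoA and ChREBP and with some of the MXD proteins. In the mouse limb bud, Mycn is known to be needed for normal growth of the mesenchyme.

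Because the network acts through the E-box, the promoters of the members themselves were searched for the letters CACGTG, which read the same on both strands. The windows ran from 250 bases before to 50 bases after each RefSeq transcription start (GRCm38.p6), and 9 of the 10 members had an entry, Myc having none. Of these 9, 4 held the motif (44.4%), against 8.09% of all 27025 genes in the same table. The 8.09% is not matched for level, the members here are only 9, and the gap was not tested. The 4 sites are shown with 12 bases on each side, 5′ to 3′ on the gene's strand, with the E-box in capitals.
Mxd4: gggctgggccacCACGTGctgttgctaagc
Mnt: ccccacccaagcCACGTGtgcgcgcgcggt
Mlx: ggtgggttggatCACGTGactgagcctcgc
Max: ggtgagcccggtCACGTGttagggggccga
The Mxd4 site lies at chr5:34187912-34187941 (minus strand) and begins 219 bases before the start, and the Mnt site lies at chr11:74830789-74830818 (plus strand), 123 bases before it. The Mlx site at chr11:101087238-101087267 (plus strand) begins 40 bases before the start and the Max site at chr12:76962234-76962263 (minus strand) 3 bases before it. The partner genes Max and Mlx and the repressors Mnt and Mxd4 thus carried the letters, while the windows of Mycn, Mycl, Mxd1, Mxd3 and Mxi1 did not. Other E-box factors read the same letters, and binding was not measured.

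All 10 members were detected, meaning a level of at least 1 TPM (a level scaled for transcript length and library size) in both libraries, which 59.2% of 21474 protein-coding genes reached. Mycn was the highest, Max and Mnt were the lowest, and the median member stood at 22.8 TPM, next to a median of 21.9 TPM over the 12702 detected protein-coding genes. The members held 14182 of 29810026 expected counts in replicate 1 and 15004 of 29938721 in replicate 2. Levels are given as mean ± SD over the 2 libraries (n = 2). The yardstick for a difference between genes was the difference that 95% of 14507 genes stayed under between replicates, 0.53 on the log2 scale or 1.44-fold. A pair of genes was called apart only where their libraries did not overlap and their mean log2 ratio passed that yardstick, since with 2 libraries an exact sign-flip test gives no p below 0.5.

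**Figure D1:**
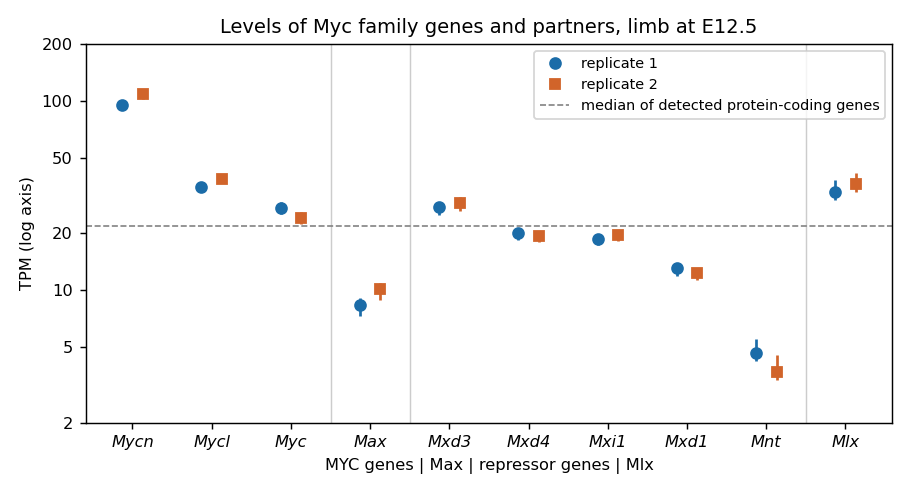
Level of each member in each library (TPM, log axis), grouped by role. Vertical lines are the authors' deposited intervals, which surround the deposited posterior means and not the plotted TPM. The dashed line is the median of detected protein-coding genes (21.9 TPM). Mycn stands above the other 9 in both libraries, at 94.96 and 109.2 TPM, and Max and Mnt lie lowest, below the dashed line.

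Mycn, which encodes N-MYC, a driver of progenitor growth in the embryo, led the family (ENSMUSG00000037169.10, chromosome 12, 12936093 to 12941914, minus strand, GRCm38). It had 94.96 TPM from 4449 expected counts in replicate 1 and 109.2 TPM from 5139 in replicate 2, or 102 ± 10.1 TPM. That put it above 87.3% of the detected protein-coding genes. Mycl, which encodes L-MYC (ENSMUSG00000028654.9, chromosome 4, 122995652 to 123002485, plus strand), had 35.18 and 38.96 TPM, or 37.1 ± 2.67. Myc itself, the broadly used member (ENSMUSG00000022346.10, chromosome 15, 61985391 to 61990374, plus strand), had 27.34 TPM from 1062 counts and 24.21 TPM from 970 counts, or 25.8 ± 2.21. Both Mycn libraries lay far above every Mycl and Myc library, and the lowest of the 3 was Myc in each replicate.

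Mycn exceeded Myc by 1.98 ± 0.27 on the log2 scale (3.95-fold, pseudocount 0.1 TPM) and Mycl by 1.46 ± 0.04 (2.75-fold), and both pairs were apart. Mycl over Myc, at 0.52 ± 0.23, stayed just under the yardstick and was not called apart. It passed in replicate 2 alone, at 0.68, and not in replicate 1 alone, at 0.36, and it was 1.12 from counts with no length scaling, which is past the yardstick. The 3 MYC genes summed to 157.48 and 172.37 TPM (165 ± 10.5), of which Mycn held 60.3% and 63.4%, Mycl 22.3% and 22.6%, and Myc 17.4% and 14.05%. The share of Mycl was close in the libraries, whereas that of Myc was lower, and that of Mycn higher, in replicate 2. In bulk tissue, a low level in all cells and a high level in few cells cannot be told apart, so these shares do not say which MYC gene any given cell uses.

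Max, the partner that every MYC protein needs, was among the lowest members (ENSMUSG00000059436.8, chromosome 12, 76937269 to 76962201, minus strand). It had 8.4 TPM from 297 counts in replicate 1 and 10.14 TPM from 360 counts in replicate 2, or 9.27 ± 1.23, above 28.9% of detected protein-coding genes. Exact Poisson 95% intervals of these levels, which cover counting error only, were 7.47 to 9.41 TPM and 9.12 to 11.2 TPM, so they met only at their ends. Max mRNA was 17.7-fold lower than the summed MYC mRNA (log2 ratio −4.14 ± 0.10) and 3.74-fold lower than Mlx RNA (−1.90 ± 0.10), whose noncoding transcripts are included. These are ratios of RNA, and protein was not measured.

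Mlx, the parallel hub (ENSMUSG00000017801.11, chromosome 11, 101087277 to 101092207, plus strand), had 33.26 and 36.33 TPM, or 34.8 ± 2.17, close to Mycl. Its other known partners were measured too. Mlxip, which encodes MondoA, had 12.2 and 10.67 TPM, and Mlxipl, which encodes the glucose-responsive ChREBP known from liver and fat, had 2.01 and 2.2 TPM. Mlxip exceeded Mlxipl 5.22-fold (2.39 ± 0.22) and the pair was apart, with a log2 ratio of 3.28 without length scaling.

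Among the repressors, Mxd3, known in cycling progenitors, was the highest by TPM (ENSMUSG00000021485.9, chromosome 13, 55325168 to 55329823, minus strand), with 27.59 and 28.94 TPM, or 28.3 ± 0.955. Its lead over Mxd4, 0.51 ± 0.08 on the log2 scale, stayed under the yardstick, while its lead over Mxi1, 0.56 ± 0.003, passed it. By counts with no length scaling, Mxd3 lay below Mxi1, Mxd4 and Mxd1. Mxd4 (ENSMUSG00000037235.9, chromosome 5, 34173883 to 34187720, minus strand) had 20.11 and 19.46 TPM, or 19.8 ± 0.460. Mxi1 (ENSMUSG00000025025.9, chromosome 19, 53310518 to 53375810, plus strand) had 18.76 and 19.62 TPM, or 19.2 ± 0.608. The libraries of Mxd4 and Mxi1 overlapped, and their log2 ratio of 0.04 ± 0.08 left them not apart.

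Mxd1, a repressor known from differentiating cells (ENSMUSG00000001156.7, chromosome 6, 86647042 to 86669161, minus strand), had 13.08 and 12.35 TPM, or 12.7 ± 0.516. Mnt, a repressor known as the broadly expressed antagonist of MYC (ENSMUSG00000000282.8, chromosome 11, 74830920 to 74845725, plus strand), had 4.67 TPM from 393 counts and 3.69 TPM from 313 counts, or 4.18 ± 0.693. It was the lowest of the 10 by TPM, above 15.03% of detected protein-coding genes. Mxd3 exceeded Mxd1 2.21-fold (1.15 ± 0.11), and Mxd4 and Mxi1 exceeded Mnt 4.68-fold (2.23 ± 0.20) and 4.54-fold (2.18 ± 0.28), all apart. Without length scaling Mxd3 over Mxd1 turned to −0.70, since the Mxd3 transcripts are shorter. Mga, which encodes a very large MAX partner with a T-box domain, had 30.88 and 33.46 TPM and exceeded Mnt 7.58-fold (2.92 ± 0.32).

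The 5 repressors summed to 84.21 and 84.06 TPM, and their sum was 1.96-fold lower than that of the 3 MYC genes (−0.97 ± 0.09). Without length scaling this log2 ratio was −0.59. Mga, a further MAX partner at 30.88 and 33.46 TPM, lay above each of the 5 by TPM but is not in the sum. Only its lead over Mnt was set against the yardstick, and Mxd3 was close to Mga, at 27.59 and 28.94 TPM. The ratio with Mga added is not given here. Within the sum of the 5, Mxd3 held 32.8% and 34.4%, Mxd4 23.9% and 23.2%, Mxi1 22.3% and 23.3%, Mxd1 15.5% and 14.7%, and Mnt 5.55% and 4.39%. No repressor gene dominated as Mycn did among the activators.

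**Figure D2:**
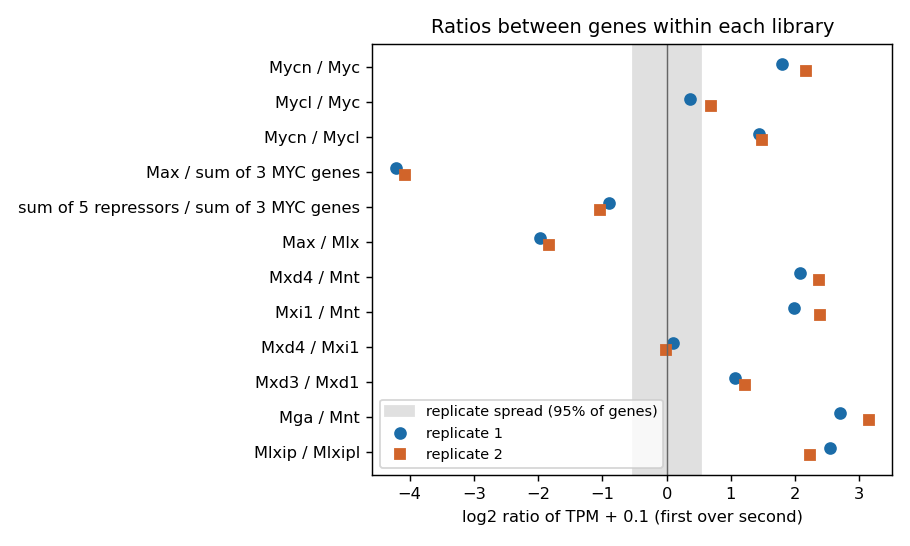
Log2 ratio of TPM (pseudocount 0.1) for 12 gene pairs, the first over the second, in each library; the grey band spans the replicate yardstick of 0.53 on either side of 0. For 10 pairs both points lie outside the band on one side, while Mxd4 over Mxi1 lies inside it in both libraries and Mycl over Myc only in replicate 1.

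Ordered by mean TPM, the members ran Mycn, Mycl, Mlx, Mxd3, Myc, Mxd4, Mxi1, Mxd1, Max and Mnt. Of the 9 neighbouring pairs in that order, 3 were apart: Mycn above Mycl, Mxi1 above Mxd1 (0.59 ± 0.10) and Max above Mnt (1.13 ± 0.42). Without length scaling Mnt was above Max by 0.10 ± 0.42 and their libraries overlapped. The middle of the order is loose. Mycl and Mlx overlapped (0.09 ± 0.01), and Mlx over Mxd3 (0.30 ± 0.04), Mxd3 over Myc (0.13 ± 0.17), Myc over Mxd4 (0.38 ± 0.09) and Mxd1 over Max (0.46 ± 0.25) did not overlap but stayed under the yardstick.

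Between the libraries the members' log2 ratios of scaled counts, replicate 1 over replicate 2, ran from −0.26 for Max to 0.35 for Mnt. By the exact conditional binomial test, none of the 10 was called (fold limit 2, adjusted p limit 0.05), against 343 of 18580 genes tested (1.85%). With at least 100 counts summed, which every member had, only 75 genes were called. Without the fold limit, 3 members passed, as did 16.4% of all genes and 22.7% of the 10649 genes with at least 1 TPM and 500 counts over both libraries, so the members' share is near that of well-counted genes. This test covers counting error only and compares these libraries. By it, 5 members had an unadjusted p under 0.05. edgeR's exact test without a fold limit called none of the members, with none at an unadjusted p under 0.05, and 241 of all genes (1.30%). Its common dispersion was estimated from these same libraries, so it could pass only genes that differ more than most, and it does not show that the members are alike.

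The 3 were Mycn and Mycl, lower in replicate 1 (a direction called for 7.1% of genes), and Mnt, higher in replicate 1 (9.3%). Mycn was lower by a log2 ratio of −0.19 (adjusted p = 1.11e-08, exact binomial test with Benjamini-Hochberg adjustment). Mycl was at −0.13 (adjusted p = 0.0201, the same exact test) and Mnt at 0.35 (adjusted p = 0.0125, the same exact test). For Mycn the authors' deposited intervals, 89.4 to 95.04 TPM in replicate 1 and 103.0 to 109.06 TPM in replicate 2, did not overlap either. These intervals surround the deposited posterior means, 92.22 and 106.07 TPM, and the replicate 2 level of 109.2 TPM lies just above its interval. Intervals that did not overlap were found for 1 of 10 members and for 11.6% of 14386 genes. Max (−0.26, adjusted p = 0.108, exact binomial test) and Myc (0.15, adjusted p = 0.0920, exact binomial test) did not pass.

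The common biological coefficient of variation, a single value that edgeR fitted over 16488 genes, was 0.0698. The per-gene values of the members had a median of 0.0636. These are different measures, and the median of the per-gene values over all genes is not given here. The highest were Mnt at 0.102 and Max at 0.0970, the members with the fewest counts. With 2 libraries such per-gene values lean on all other genes.

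**Figure D3:**
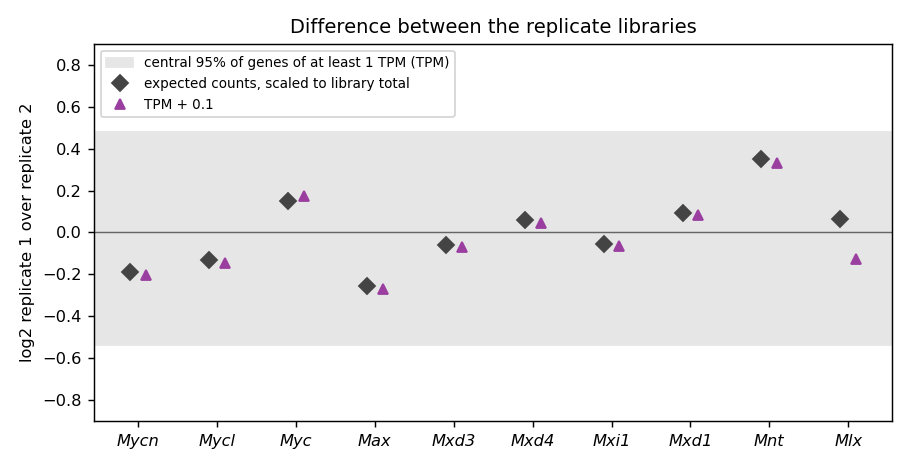
Log2 ratio of replicate 1 over replicate 2 for each member, from scaled expected counts (diamonds) and from TPM (triangles); the grey band holds the central 95% of 14386 genes by TPM, from −0.54 to 0.48. All 10 members lie inside the band, and only Mlx has its symbols on opposite sides of 0, at 0.06 by counts and −0.13 by TPM.

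Mlx had more counts in replicate 1, 938.89 against 910.56 in replicate 2, but a lower TPM there. Its deposited mean length was 1606.08 nt in replicate 1 and 1427.84 nt in replicate 2, a length difference of −11.1% (replicate 2 minus replicate 1). Such an opposite direction occurred in 1 of 10 members and in 11.4% of 14386 genes. The transcript tables show what moved with it: Mlx-204, a noncoding transcript of 618 nt, held 18.7% of the gene's TPM in replicate 1 and 34.6% in replicate 2, from only 60.33 and 123.05 expected counts. The coding transcripts Mlx-201, Mlx-202 and Mlx-203 together had 876.03 and 787.5 counts, or 26.6 and 23.8 TPM. The Mlx level of 34.8 TPM thus includes RNA assigned to a noncoding transcript. The part assigned to these coding transcripts alone had the higher value in replicate 1 by both measures.

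Transcript shares are the authors' deposited percentages of a gene's TPM, and the structures given for them are those of GENCODE M21. The transcripts quantified can differ from these: Mxi1-201 had 5156 nt as deposited and 2627 nt in M21. With transcripts of identical sequence counted as 1, the largest transcript was the same in both libraries in all 9 members with more than 1 transcript, as it was in 92.5% of 7994 genes with at least 5 TPM. The largest shift of any transcript between libraries was 15.9 percentage points for Mlx, 12.4 for Max and 11.3 for Myc, against a median of 4.7 points and a 95th percentile of 18.3 points over those 7994 genes. The shift exceeded that of 92.6% of those genes for Mlx, 86.9% for Max and 84.4% for Myc, so none of the 3 passed the 95th percentile.

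**Figure D4:**
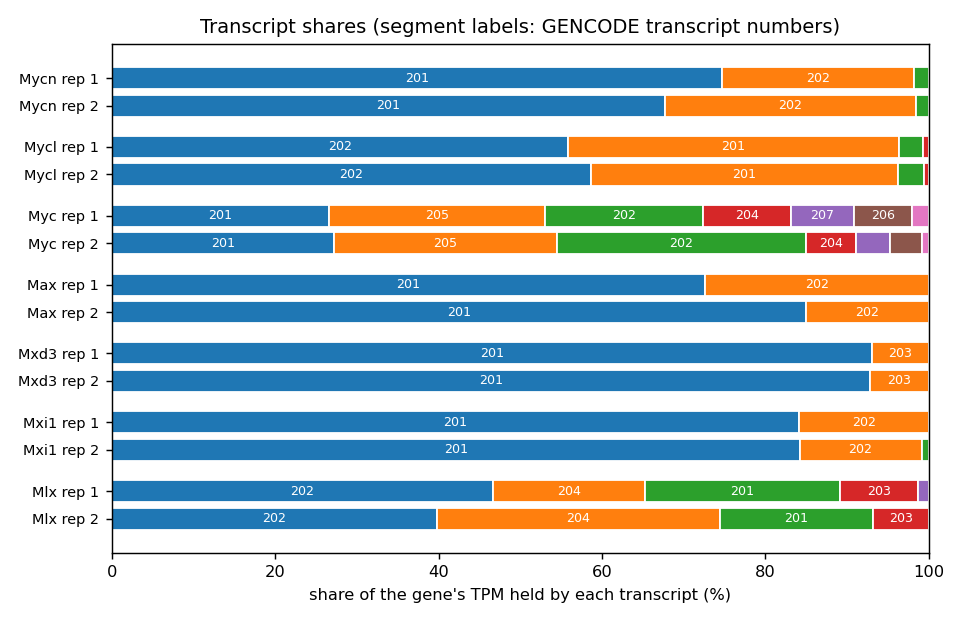
Share of each gene's TPM held by its annotated transcripts (%), replicate 1 above replicate 2, for 7 members; segment labels are GENCODE transcript numbers, and segments under 6% are not labelled. Mxi1 and Mxd3 show nearly the same split in both libraries, while Max-202, Myc-202 and Mlx-204 differ in width between them.

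Max is made in a shorter and a longer form that differ by a small coding exon of 27 nt (chr12:76961263-76961289, minus strand), which adds residues near the start of the protein, ahead of the DNA-binding region. The junction is shown 5′ to 3′ with the added exon in capitals.
Max-202: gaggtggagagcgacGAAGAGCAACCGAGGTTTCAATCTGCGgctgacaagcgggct
Max-201: gaggtggagagcgacgctgacaagcgggct
The shorter Max-201, of 151 codons, held 72.6% of Max in replicate 1 and 85.0% in replicate 2, and the longer Max-202, of 160 codons, held 27.4% and 15.03%. In expected counts these are 214.79 and 305.23 for Max-201, against 82.21 and 54.77 for Max-202. The shorter form was the larger in both libraries, and the higher Max total in replicate 2 was carried by Max-201, since Max-202 had fewer counts there.

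Mxi1 has alternative first exons, whose starts lie 18940 nt apart. Mxi1-201, of 295 codons, starts upstream and held 84.1% and 84.2%, and Mxi1-202, of 192 codons, starts downstream and held 15.9% and 14.9%. The sequences around the RefSeq starts nearest to each are shown 5′ to 3′, with the first 30 bases from the RefSeq start in capitals.
Mxi1 upstream start: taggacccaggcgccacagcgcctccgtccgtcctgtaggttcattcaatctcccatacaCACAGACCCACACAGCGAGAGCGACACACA
Mxi1 downstream start: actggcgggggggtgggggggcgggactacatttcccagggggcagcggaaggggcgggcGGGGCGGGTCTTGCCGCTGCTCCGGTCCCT
The upstream window is chr19:53310446-53310535 (plus strand), and Mxi1-201 starts 12 nt after the RefSeq start in it. The downstream window is chr19:53329353-53329442, and Mxi1-202 starts 45 nt after the RefSeq start in it, which is past the window's end. That RefSeq start is the annotated start of Mxi1-203, which held 0% and 0.89%. Most Mxi1 RNA was thus assigned to the upstream start and the longer reading frame, in the same proportion in both libraries.

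The MYC genes differ in how far their transcripts change the protein. Mycn-201 held 74.7% and 67.7%, and Mycn-202, which starts 1298 nt downstream, held 23.5% and 30.8%, with the same coding length of 1386 nt in each. Of Mycl, Mycl-202 held 55.8% and 58.7% and Mycl-201 held 40.6% and 37.5%, again with a shared coding length of 1104 nt. Myc-201 and Myc-205 have an identical sequence and differ only in the annotated first codon, CTG for a frame of 454 codons in Myc-201 and ATG for one of 439 codons in Myc-205. The reads cannot separate them, and the quantifier gave each 26.5% in replicate 1 and 27.2% in replicate 2, together 53.1% and 54.5%. Myc-202 held 19.3% and 30.5%, and Myc-204 held 10.8% and 6.12%, both with the ATG frame of 439 codons.

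The remaining repressors were simple. Mxd3-201 held 93.1% and 92.8% of Mxd3, Mxd4-201 held 98.7% and 98.4% of Mxd4, and Mxd1-201 and Mnt-201 held 100% of their genes in both libraries. Of Mlx, Mlx-202 (244 codons) held 46.6% and 39.8%, and Mlx-201 (298 codons) held 23.8% and 18.7%.

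Genes that overlap a member on the opposite strand share reads with it unless strand was used in counting, which the sources used here do not state. Mlx overlaps Psmc3ip by 385 nt, and Psmc3ip had 45.73 and 45.66 TPM. Mxd3 overlaps Prelid1 by 105 nt, and Prelid1 was far higher than Mxd3, at 354.55 and 374.89 TPM. Mxi1 overlaps Gm10197 by 201 nt, at 11.41 and 4.34 TPM from few counts. In GENCODE M21, Mxi1 also overlaps AC133451.2 by 5146 nt and Mxd4 overlaps Gm42846 by 1001 nt on the opposite strand, and the levels of these genes are not analysed here. On the same strand, where strand cannot separate reads, Max overlaps Gm47218 by 1319 nt and Mxd1 overlaps Gm44292 by 2364 nt in GENCODE M21. The levels of Gm47218 and Gm44292 are not analysed here. Reads of all these overlaps cannot be told apart, and their part in the Mlx, Mxd3, Mxi1, Mxd4, Max and Mxd1 levels was not tested.

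The cofactor, corepressor and stability genes of the network each had a median above that of the members. All 14 listed MYC cofactors were detected, with a median of 53.6 TPM, led by the helicase genes Ruvbl1 (134 ± 2.97) and Ruvbl2 (112 ± 4.96). The acetyltransferase gene Ep300 was the lowest, at 14.2 ± 2.74. All 10 genes of the SIN3 corepressor, which the MXD proteins recruit, were detected with a median of 109 TPM. The histone-binding genes Rbbp4 (490 ± 25.02) and Rbbp7 (341 ± 7.04) and the deacetylase gene Hdac2 (311 ± 3.25) led, and Sap18 was lowest at 28.7 ± 1.89.

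All 12 genes listed for MYC protein stability were detected, with a median of 40.3 TPM. Stub1 (185 ± 4.53), Aurka, whose kinase shields N-MYC from degradation (131 ± 0.523), and the ubiquitin ligase gene Skp2 (116 ± 1.55) were the highest. Fbxw7, which encodes the ligase subunit that marks MYC and N-MYC for degradation, was the lowest at 9.41 ± 0.361. Of 9 related factors that bind E-boxes without MAX, 8 were detected with a median of 26.4 TPM. Usf1 (98.2 ± 4.06) and Srebf2 (92.2 ± 1.65) were near the level of Mycn, Srebf1 had 47.0 ± 3.37, and Tfec was listed at 0.44 in both libraries.

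All 25 listed genes known to be activated by MYC were detected, with a median of 148 TPM, against 21.9 TPM over detected protein-coding genes. Cdk4, the cyclin-dependent kinase gene of the early cell cycle (1957 ± 40.6), the lactate dehydrogenase gene Ldha (1329 ± 49.3) and the nucleolar gene Npm1 (957 ± 32.1) led, and the telomerase gene Tert was the lowest at 7.33 ± 0.346. Ldha and Npm1 have processed pseudogenes, and reads shared with these make their levels uncertain. Of 6 genes known to be repressed by MYC, 5 were detected, with a median of 10.8 TPM. The cell cycle inhibitor gene Cdkn1a had 55.6 ± 3.48, Gadd45g 29.9 ± 0.127 and Gadd45a 18.5 ± 1.43, and the inhibitor gene Cdkn2b was lowest at 0.945 ± 0.0495. Most of the activated genes are housekeeping genes of growth with high levels in many tissues. The lists are described here only by their levels and their promoter letters. The E-box of the members' promoters was found in 7 of the 20 activated genes with a promoter entry (35%), among them Cdk4 and Ldha. It was found in 1 of 5 repressed genes, Gadd45g, and in 1 of 3 targets of MLX partners, Arrdc4, against 8.09% of all genes. The lists hold known targets, so these shares are no independent test, and the 8.09% is not matched for level.

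Targets of MLX with MondoA or ChREBP were split. The arrestin-like genes Txnip, with 58.33 and 57.89 TPM, and Arrdc4, with 23.05 and 19.7 TPM, were detected, while Pklr, the pyruvate kinase gene of liver and red cells, had 0.29 and 0.20 TPM. Pvt1, the long noncoding RNA gene beside Myc, had 2.76 and 2.91 TPM. None of the listed genes of any group was called between the libraries at a fold of at least 2, against 1.85% of all genes. That share includes genes with few counts, since only 75 genes were called with at least 100 counts summed.

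**Figure D5:**
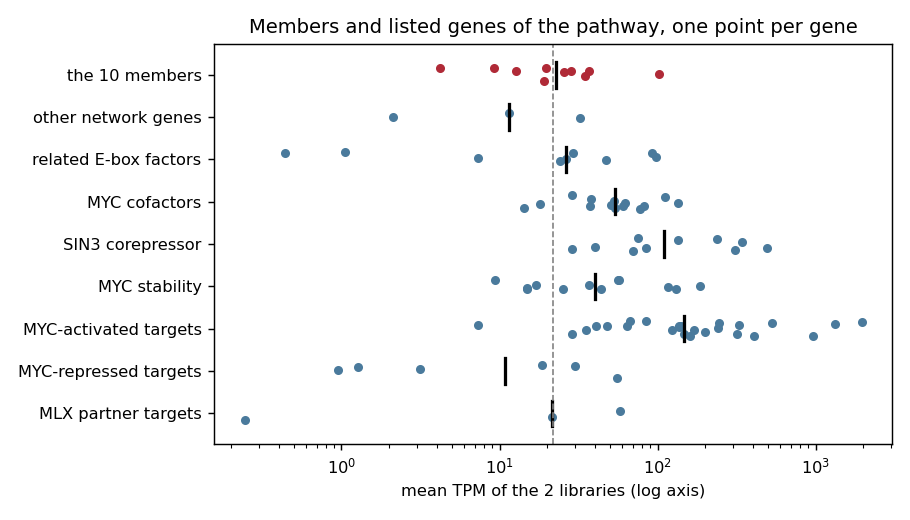
Mean TPM (log axis) of the 10 members, at the top, and of each listed gene of the pathway, 1 point per gene with the median as a bar; the dashed line is the median of detected protein-coding genes (21.9 TPM). The median bars of the members (22.8 TPM), related E-box factors (26.4 TPM) and MLX partner targets (21.4 TPM) lie near the line. Those of other network genes (11.4 TPM) and MYC-repressed genes (10.8 TPM) lie below it, and that of MYC-activated genes lies at 148 TPM.

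The tissue label was checked against 10 limb genes, all of which were detected, led by Msx1 (395 ± 21.6), Sox9 (207 ± 1.03) and Prrx2 (166 ± 6.80), with Hand2 the lowest at 19.0 ± 3.03. Of 8 genes that define liver, heart, lung, kidney or brain, only Myl7 reached 1 TPM, at 1.96 and 1.08, and Nkx2-5 was listed at 0 in both libraries. Their levels summed to 3.01 TPM in replicate 1 and 1.71 TPM in replicate 2. All 7 blood and vessel genes were detected, from the embryonic globin genes Hbb-y (7150 ± 17.99) and Hba-x (1318 ± 32.9) and the endothelial gene Pecam1 (21.1 ± 1.65) down to Ptprc (1.20 ± 0.198), and summed to 8529 and 8502 TPM. The tissue thus held blood and vessel RNA beside that of limb mesenchyme and cartilage, and the share of each in the members' levels was not tested. The libraries also differed in genes of limb position, picked here after their values were seen: the forelimb gene Tbx5 had 35.17 and 24.11 TPM, and the hindlimb genes Tbx4 and Pitx1 had 32.27 and 37.14 TPM and 142.42 and 172.9 TPM. The part of that difference in the Mycn, Mycl and Mnt differences between libraries was not tested.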

How the data were processed

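The authors' expected counts are estimates for each gene and transcript, as deposited, the deposited TPM and FPKM are scaled by effective length and reads, and the deposited percent values give each transcript's share of its gene, per the file headers. The authors' interval bounds and posterior means were used as deposited. Reads were mapped to mm10 with GENCODE M4 genes, per a text file deposited for each library. The aligner, the quantifier and the use of strand were not given in the sources used here. Expected counts summed to 29810026 in replicate 1 and 29938721 in replicate 2. Spike-ins held 3.28% and 2.30% of them and were left out of count scaling. The libraries differed beyond sampling noise (chi-square over 16995 genes, 6.61 for each degree of freedom). The labels call them biological replicates, and no labelled second group exists.

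Names and coordinates came from GENCODE M21 (GRCm38, the same assembly) by identifier without version, which matched 42462 of 43346 Ensembl genes. Promoters came from RefSeq. Mycnos is not analysed here. The members and lists were chosen with earlier results of these data known. The text names every member and the 3 further network genes, the 3 highest and the lowest of each other list, the MLX partner targets and locus neighbours in full, and member transcripts of at least 10% in either library. Some genes that this rule or the marker lists take are not reported here.

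Log values used a pseudocount of 0.1 TPM. Counts, rounded to whole numbers, were compared by a two-sided exact conditional binomial test on genes with at least 10 counts summed, with Benjamini-Hochberg adjustment over 18580 genes. With 1 group, edgeR's quasi-likelihood test has no contrast, so its dispersion estimate and exact test with the common dispersion were used. The count test was checked on data simulated with counting error as the only noise, whereas the real libraries differed beyond it. The software was Python 3.11.15 (pandas 2.3.3, scipy 1.17.1, numpy 2.4.6, matplotlib 3.10.9) and R 4.3.3 (DESeq2 1.42.0, edgeR 4.0.16).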

Additional observations from a re-analysis of the deposited data

How the results depend on the processing

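Of 192 alternative values, 162 kept their direction and side of the threshold or moved within the replicate spread, 25 moved, 2 passed the threshold only under the alternative and 3 reversed. Of the 25 that moved, 21 were member levels. The level of every member moved in FPKM and when TPM was rescaled to protein-coding genes. For Mycn, 102 TPM became 64.2 FPKM or 123 rescaled TPM. The count of genes called between the libraries was 343, and became 75 with at least 100 counts summed, 159 with edgeR's exact test and 3048 with no fold limit, while TMM scaling gave 341, DESeq2 size factors 339 and no count filter 324. Without that fold limit, 3 members passed by the binomial test and 0 by edgeR's exact test. Without length scaling, Mxd3 over Mxd1 reversed to −0.70 and Mxd4 over Mxi1 to −0.39, since TPM divides by transcript length, and Mycl over Myc reached 1.12. Without replicate 1, Mycl over Myc was 0.68. Leaving out each replicate, Mxd4 over Mxi1 ranged from −0.012 to 0.0997, Mycn over Myc ranged from 1.79 to 2.17, Max over the MYC sum from −4.21 to −4.07 and the repressors over the MYC sum from −1.04 to −0.90. Without length scaling, the repressors over the MYC sum came to −0.59 and Max over the MYC sum to −4.60. In that setting 2 neighbouring pairs were apart in place of 3, and Max, not Mnt, was the lowest member.

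All 10 members stayed detected under every alternative unit. Max and Mnt, with 297 to 393 counts a library, are the least precise. No paired analysis was possible because the samples form 1 group.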
